A study of Mus musculus with 8 samples.

Results

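The genes examined here are 10 members of the Toll-like receptor system, taken from the count table by gene symbol: the receptors Tlr2, Tlr3, Tlr4, Tlr7, Tlr9 and Tlr13, the co-receptor and accessory genes Cd14, Cd180 and Ly86, and the adaptor gene Myd88. All 10 were found among the 53278 symbols of the table. Bulk RNA sequencing covered 8 whole forebrain samples from male C57BL/6J mice between 10 and 20 weeks old. Chow with PLX3397 was given to 4 of them over 9 days (depleted), and the remaining 4 received control chow over the same period (control). PLX3397 blocks the kinase of the colony-stimulating factor 1 receptor, CSF1R, which microglia need to survive. No other genotype or treatment is given, and the drug dose is not given in the sources used here. PLX3397 reaches all tissues, and the counts come from all forebrain cells together.

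Toll-like receptors are membrane proteins that recognise molecules of microbes or of damaged cells through a repeat-rich outer domain and signal through an inner TIR domain. TLR2 and TLR4 work at the cell surface, TLR4 with the lipopolysaccharide carrier CD14, whereas TLR3, TLR7, TLR9 and TLR13 read nucleic acids in endosomes. Most of them signal through MyD88 to NF-kB, whereas TLR3 uses the adaptor TRIF. CD180 is a TLR4-like surface protein without a signalling TIR domain that is held by the secreted protein MD-1, the product of Ly86. In brain tissue microglia are the best-known carriers of these receptors, and astrocytes, endothelial cells and neurons have been described to express some of them, TLR3 among them.

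Microglial transcripts were nearly lost in every depleted mouse, and the regional make-up of the samples varied, in part between the groups. Csf1r, the gene of the drug's target, stood at 58.6 ± 5.49 CPM in the control group and at 1.22 ± 0.609 CPM in the depleted group (CPM is counts scaled to library size by TMM, mean ± SD, n = 4 here and throughout). Csf1r shares 873 of its 5774 exon bases with Hmgxb3 on the opposite strand, and the strand setting is not given. Total counts ran from 48455538 to 68406688 per mouse, so that 1 CPM was roughly 50 counts. The summed level of 8 forebrain marker genes ran from 268 to 454 CPM in control and from 278 to 419 CPM in depleted mice, against 2.07 to 8.02 and 0.453 to 3.27 CPM for 8 cerebellar and hindbrain markers. Mice 2 and 3 of both groups held 1249 to 2081 counts of the hypothalamic gene Hcrt and mice 1 and 4 held 4 to 12, and the striatal marker score (mean log2 CPM) ran from 4.66 to 7.11 in control and from 6.12 to 8.12 in depleted mice. Values within mice with or without Hcrt, 2 mice against 2, are given beside the genes whose call they change.

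Of the 10 genes, 5 fell in depleted mice: Ly86, Tlr13, Cd14, Cd180 and Tlr7. Tlr2, Tlr9, Tlr4, Myd88 and Tlr3 did not pass the threshold, and 0 rose. Across all 20140 genes tested, 1.11% were lower and 0.0546% were higher at an adjusted p under 0.05 (edgeR's quasi-likelihood test, Benjamini-Hochberg values over all genes). With DESeq2 these shares were 1.72% and 0.586%, and with limma-voom 1.12% and 0.0447%. Without depleted mouse 2, edgeR called 441 genes lower and 243 higher, against 223 and 11 with it, and 6 of the 10 members lower. At an unadjusted p under 0.05 in edgeR, 7 of the 10 were called, all lower, against 11.0% of all genes in either direction. The median log2 fold change of the 10 was -1.87, against -0.0004 for all genes tested. All 10 passed the filter on low counts, which asks for about 10 counts (0.186 CPM) in 4 mice. Tlr13, Cd14 and Cd180 reached that level in 0 depleted mice, Ly86 in 2 and Tlr7 in 3, so these 5 entered the test through the control mice. In bulk tissue, fewer cells of a type and less RNA per cell cannot be told apart.

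**Figure D1:**
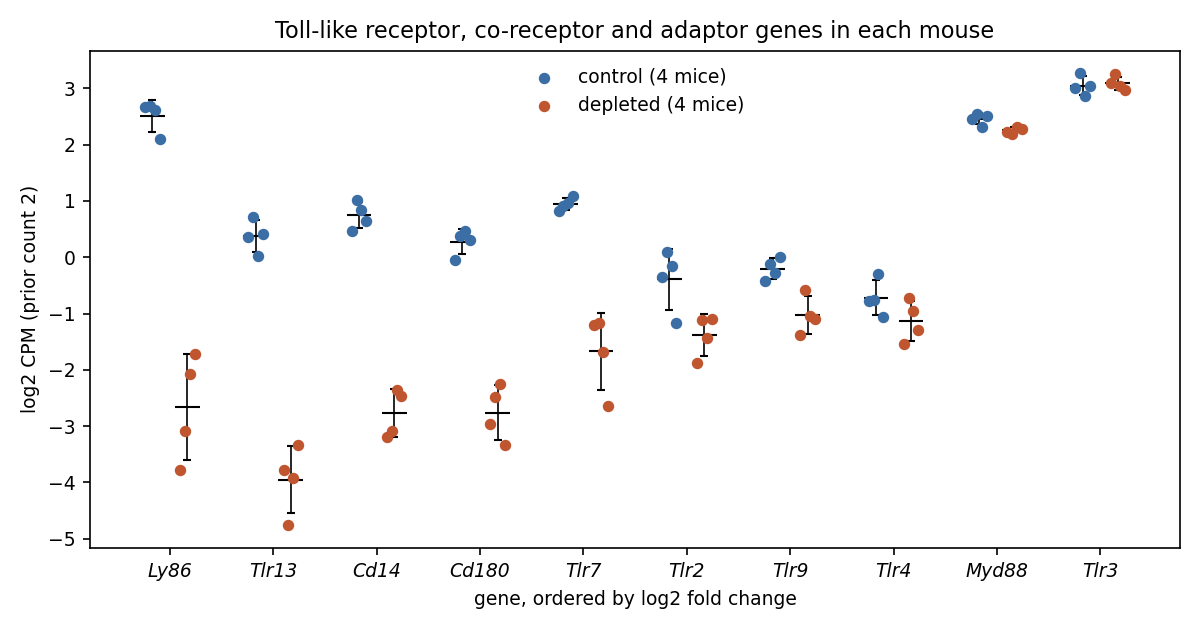
Level of each of the 10 genes in each mouse, as log2 CPM with a prior count of 2 (vertical axis), for 4 control and 4 depleted mice, with the mean and SD of each group. Ly86, Tlr13, Cd14, Cd180 and Tlr7 show a wide gap between the groups, whereas the groups overlap for Tlr2, Tlr4 and Tlr3.

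The start-site sequences of 4 members are shown because the test gave different calls for them: Tlr13 and Cd180 fell, whereas Tlr9 and Myd88 did not pass. Each line runs 5′ to 3′ on the strand of the gene, upstream of the RefSeq start (GRCm38.p6) and without bases that GENCODE M21 counts as exon. For Cd180 it is the first of 2 listed starts. Capitals mark GAGGAA, the core letters bound by the myeloid factor PU.1, and the core of an interferon-stimulated response element (GAAA, any 2 bases, GAAA), searched on both strands. The windows are chrX:106143025-106143203 (plus strand), chr13:102693297-102693546 (plus strand), chr9:106222348-106222597 (plus strand) and chr9:119340042-119340268 (minus strand).
Tlr13: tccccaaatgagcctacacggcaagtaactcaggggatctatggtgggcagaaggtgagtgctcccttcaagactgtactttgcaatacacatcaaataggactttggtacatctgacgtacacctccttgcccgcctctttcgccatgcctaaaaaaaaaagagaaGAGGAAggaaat
Cd180: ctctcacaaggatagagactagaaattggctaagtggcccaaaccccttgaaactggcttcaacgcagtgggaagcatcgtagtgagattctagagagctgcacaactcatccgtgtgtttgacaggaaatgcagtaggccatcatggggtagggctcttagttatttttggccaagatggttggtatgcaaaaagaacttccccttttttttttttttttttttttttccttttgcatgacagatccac
Tlr9: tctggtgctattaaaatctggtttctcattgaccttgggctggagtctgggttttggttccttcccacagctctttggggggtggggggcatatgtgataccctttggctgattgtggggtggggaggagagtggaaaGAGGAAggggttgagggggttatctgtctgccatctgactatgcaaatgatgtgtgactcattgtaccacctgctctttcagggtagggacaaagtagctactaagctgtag
Myd88: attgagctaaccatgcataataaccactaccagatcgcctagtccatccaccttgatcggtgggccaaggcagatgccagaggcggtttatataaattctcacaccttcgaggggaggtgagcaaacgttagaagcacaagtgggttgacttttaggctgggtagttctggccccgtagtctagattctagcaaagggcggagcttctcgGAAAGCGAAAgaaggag

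RefSeq windows of 250 bases upstream of the start were matched by symbol for 7 of the 10 genes: Tlr2, Tlr3, Tlr9, Tlr13, Ly86, Cd180 and Myd88. GAGGAA was present in 2 of the 7, Tlr13 and Tlr9, against 23.3% of 32851 windows in the table. The response element core was present in 1 of the 7, Myd88, against 3.0% of the windows. The letters are a description of these windows, and GAGGAA stood upstream of 1 gene that fell and 1 that did not pass.

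Cd14 encodes the glycolipid-anchored protein that hands lipopolysaccharide to TLR4. It lies on chromosome 18, 36725067 to 36726798 (mm10), and the merged exons of its listed transcripts cover that whole span of 1732 bases. Its level was 1.35, 1.98, 1.75 and 1.54 CPM in control mice 1 to 4. In depleted mice 1 to 4 it was 0.0725, 0.0814, 0.159 and 0.144 CPM. Every depleted mouse therefore lay far below every control mouse. It fell by 3.81 on the log2 scale (SE 0.28, adjusted p = 5.60e-05), and 7.12% of the control level was left (95% exact counting interval 4.59% to 10.6%).

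Tlr4, the lipopolysaccharide receptor gene itself, was weakly expressed and did not pass. The gene spans 66827584 to 66930284 of chromosome 4. Control mice 1 to 4 had 0.548, 0.556, 0.772 and 0.444 CPM, which is 24 to 42 counts. Depleted mice 1 to 4 had 0.308, 0.569, 0.476 and 0.370 CPM, or 17 to 33 counts. The groups overlapped, with depleted mice 2 and 3 inside the control range. The log2 fold change of -0.43 (SE 0.27, adjusted p = 0.616) had a 95% interval from -1.03 to 0.17, so a fall of more than 2-fold and a small rise both lie inside it. Ly96, which encodes the TLR4 partner MD-2, had 0.684 ± 0.156 and 0.651 ± 0.182 CPM in the control and depleted groups (-0.08, adjusted p = 0.949).

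Ly86 and Cd180, the genes of the MD-1 and CD180 complex, both fell. Ly86 (chromosome 13, 37345208 to 37419036) had 6.30, 6.38, 6.06 and 4.24 CPM in control mice 1 to 4. The depleted mice had 0.0363, 0.0814, 0.202 and 0.267 CPM, from only 2, 4, 14 and 13 counts. Its log2 fold change of -5.26 (SE 0.39, adjusted p = 5.60e-05) left 2.59% of the control level (interval 1.77% to 3.66%), and was within its error of that of Tlr13 (-5.24). Cd180 (chromosome 13, 102693558 to 102739629) stood at 0.932, 1.26, 1.34 and 1.20 CPM in control mice 1 to 4. In depleted mice it stood at 0.0907, 0.142, 0.173 and 0.0617 CPM. Both genes separated the groups without overlap, but the fall of Cd180 was smaller (-3.28, SE 0.30, adjusted p = 2.43e-04), with 10.3% left (interval 6.65% to 15.3%). Cd180 shares 182 of its 4509 exon bases with Mast4 on the opposite strand. Since the strand setting is not given, the part of Mast4 reads in its counts was not tested.

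Tlr2 encodes the receptor for bacterial lipoproteins, which pairs with TLR1 or TLR6. The gene is on chromosome 3, 83836272 to 83841767. Control mice 1 to 4 had 0.749, 1.03, 0.864 and 0.407 CPM. Depleted mice had 0.236, 0.427, 0.332 and 0.432 CPM. Depleted mice 2 and 4 lay above control mouse 4, the lowest control, and below the other 3 controls. The log2 fold change of -1.10 (SE 0.32, unadjusted p = 0.00702, adjusted p = 0.251) did not pass in any of 18 alternatives (adjusted p from 0.0768 to 0.852). Of its partners, Tlr1 fell from 105 counts over the 4 control mice to 4 over the 4 depleted mice (-4.61, SE 0.61, adjusted p = 0.00343). Tlr1 did not pass within mice with Hcrt (-5.73, adjusted p = 0.0579) or without it (-3.78, adjusted p = 0.170). Tlr6 stood at -1.68 (SE 0.44, adjusted p = 0.184), with 76 and 25 counts.

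The endosomal receptors differed from each other. Tlr13, a receptor for bacterial ribosomal RNA that humans lack, lies on chromosome X, 106143204 to 106160493. Control mice 1 to 4 had 1.24, 1.61, 0.974 and 1.29 CPM, from 53 to 78 counts. The depleted mice had 2, 0, 2 and 3 counts, or at most 0.0617 CPM. All depleted mice were close to 0, and the log2 fold change was -5.24 (SE 0.43, adjusted p = 1.01e-04), with 2.48% left (interval 0.988% to 5.18%). In the 4 mice with Hcrt counts alone, Tlr13 had a log2 fold change of -6.08 and did not pass (adjusted p = 0.0522).

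Tlr7, the receptor for single-stranded RNA, fell less far. Its position is chromosome X, 167304929 to 167330558. Its level was 1.74, 1.85, 1.91 and 2.09 CPM in control mice 1 to 4. It was 0.399, 0.407, 0.274 and 0.123 CPM in depleted mice 1 to 4. The groups did not overlap, and depleted mouse 4 was the lowest, at 6 counts. Tlr7 fell by 2.65 on the log2 scale (SE 0.30, adjusted p = 9.99e-04), with 15.9% left (interval 12.1% to 20.6%). Tlr7 did not pass within the mice with Hcrt counts (-2.48, adjusted p = 0.0579) or within those without (-2.83, adjusted p = 0.0609), where 2 mice stood against 2.

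Tlr9, the receptor for unmethylated CpG DNA, did not pass although its groups did not overlap. It lies on chromosome 9, 106222598 to 106226883. Control mice 1 to 4 had 0.712, 0.886, 0.790 and 0.962 CPM. Depleted mice had 0.345, 0.630, 0.447 and 0.432 CPM. The highest depleted mouse, number 2, was just below the lowest control. The log2 fold change was -0.85 (SE 0.23, unadjusted p = 0.00428, adjusted p = 0.202). Without depleted mouse 2 it was -1.02 and passed (adjusted p = 0.0474), the only one of 18 alternatives in which it did. Of all genes tested, 3.5% had every depleted mouse below every control mouse, and 7 of the 10 genes did: the 5 that fell, Tlr9 and Myd88. The opposite order was seen for 2.28% of all genes and for 0 of the 10.

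Tlr3, the receptor for double-stranded RNA, showed no difference beyond the spread between mice. It lies on chromosome 8, 45395665 to 45411080, and shares 381 of its 5207 exon bases with Gm45542 on the opposite strand. Control mice 1 to 4 had 8.02, 9.60, 7.24 and 8.23 CPM. Depleted mice 1 to 4 had 8.47, 9.52, 8.24 and 7.82 CPM, all inside the control range. The log2 fold change was 0.04 (SE 0.11, adjusted p = 0.931), with a 95% interval from -0.20 to 0.29. Its sign depended on the mice included, at -0.01 without control mouse 3 and -0.01 without depleted mouse 2. Of the control level 103% was left (interval 96.5% to 110%).

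Myd88, the adaptor shared by most Toll-like receptors and the interleukin-1 receptors, kept most of its level. It lies on chromosome 9, 119335934 to 119341411, and shares 290 of its 2576 exon bases with Acaa1a on the opposite strand. Control mice 1 to 4 had 5.48, 5.79, 4.96 and 5.68 CPM. Depleted mice had 4.62, 4.56, 4.95 and 4.83 CPM. The lowest control mouse, number 3, and the highest depleted mouse, also number 3, nearly met. The log2 fold change of -0.21 (SE 0.10, adjusted p = 0.470) was negative in 19 of 19 alternatives and passed in 0 of them (adjusted p from 0.435 to 1.00). The 95% interval ran from -0.42 to 0.01, and 87.0% of the control level was left (interval 79.9% to 94.6%).

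The share of the control level left in depleted mice, set beside 20 microglia core genes, spread the 10 genes over a wide range. The core genes, all of which fell, left between 1.10% (P2ry13) and 73.9% (Sall1), with a median of 2.70%. Ly86 (2.59%) and Tlr13 (2.48%) were near that median. Cd14 (7.12%) was close to Trem2 (6.17%), and Cd180 and Tlr7 lay between Trem2 and the pair of Aif1 (25.2%) and Olfml3 (30.9%). Tlr2 (46.5%) and Tlr9 (54.9%, interval 42.6% to 70.5%) kept about as much as each other, and Tlr4 kept 74.4% (interval 56.4% to 97.9%). The intervals cover counting error only.

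**Figure D2:**
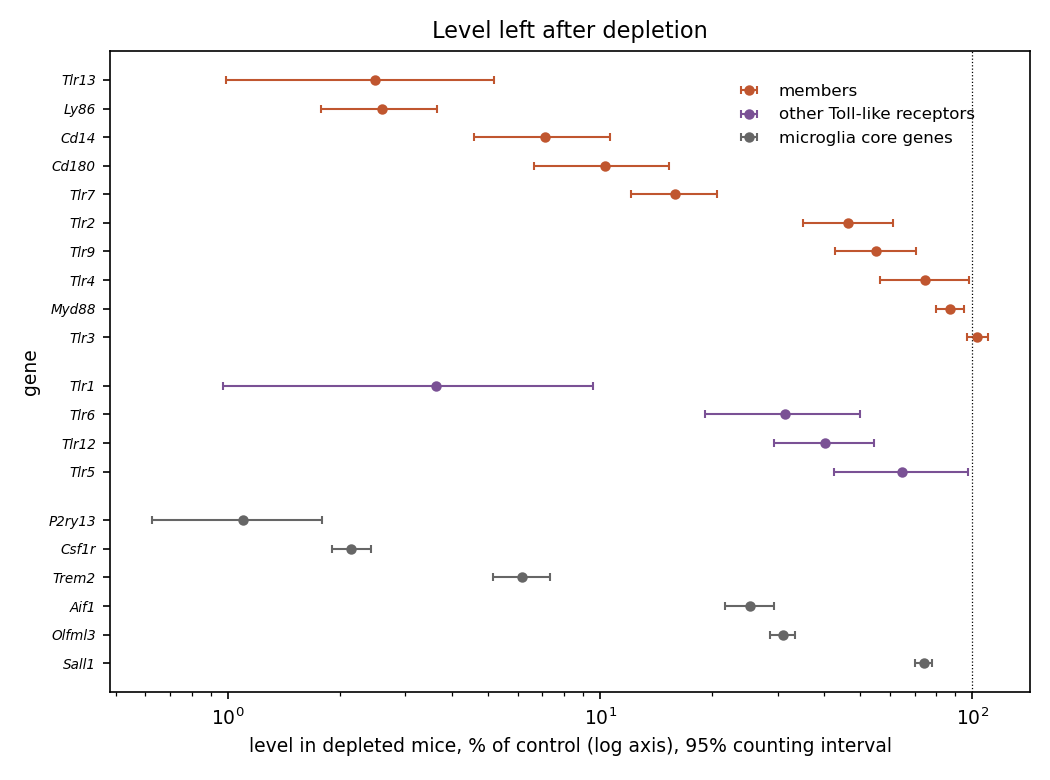
Level in depleted mice as a percentage of control (log axis) from counts summed over 4 mice per group, with 95% exact counting intervals, for the 10 members, 4 other Toll-like receptors with counts in depleted mice and 6 of the 20 microglia core genes. Ly86 (2.59%) and Tlr13 (2.48%) sit beside Csf1r (2.15%), whereas Tlr3 (103%) and Myd88 (87.0%) sit at the right edge.

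The low residual levels did not rank the depleted mice in one order. Ly86 and Cd14 were lowest in depleted mouse 1, Tlr13 in mouse 2, and Tlr7 and Cd180 in mouse 4. Ly86 and Tlr13 were highest in mouse 4, Cd14 and Cd180 in mouse 3 and Tlr7 in mouse 2. With 0 to 22 counts per mouse, these orders rest on few reads.

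Partner genes were compared within each mouse, as the difference of their log2 CPM, in 4 pairs chosen by the roles of the proteins. Tlr3 exceeded Tlr7 by 2.19, 2.35, 1.90 and 1.96 in control mice 1 to 4 and by 4.29, 4.43, 4.73 and 5.62 in depleted mice. This difference grew by 2.67. Tlr4 was below Cd14 in every control mouse (-1.47 ± 0.32) and above it in every depleted mouse (1.64 ± 0.52), a shift of 3.11. Cd180 minus Ly86 stood at -2.24 ± 0.38 in control and -0.10 ± 1.10 in depleted mice, a shift of 2.14 that was uneven, with depleted mouse 4 (-1.63) next to the highest control (-1.79). The 4 pairs were chosen with the calls of their genes known, so these differences are a description, with no test. Tlr4 minus Myd88 stood at -3.18 ± 0.40 and -3.38 ± 0.37, a shift of -0.20 that was smaller than the spread between mice.

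**Figure D3:**
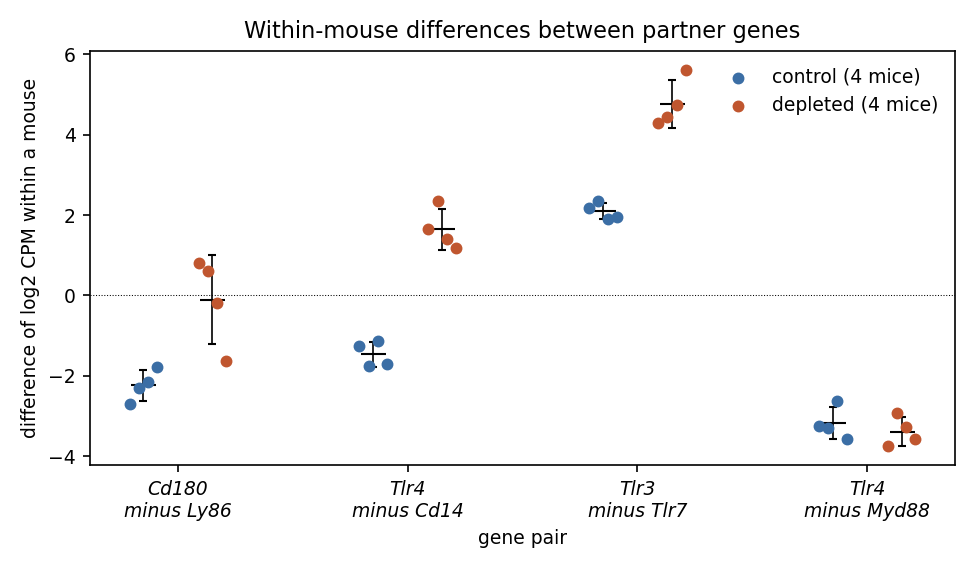
Difference of log2 CPM between 2 genes within each mouse, for 4 pairs, with group means and SDs (4 mice per group). The groups are apart for Tlr3 minus Tlr7, Tlr4 minus Cd14 and Cd180 minus Ly86, and overlap for Tlr4 minus Myd88.

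Levels per kilobase of exon put the genes in a different order in each group. The length used was that of the exons of all listed transcripts merged, not of the transcripts expressed here. The order between genes and the shares below depend on it. In control mice Myd88 was highest, at 2.13 ± 0.142 CPM per kilobase, followed by Tlr3 at 1.59 ± 0.188 and Ly86 at 1.58 ± 0.280, which did not differ beyond their spread. Cd14 (0.954 ± 0.156) and Tlr7 (0.465 ± 0.0362) followed. Tlr13 (0.297 ± 0.0603), Cd180 (0.262 ± 0.0393), Tlr2 (0.253 ± 0.0874) and Tlr9 (0.241 ± 0.0313) overlapped each other, and Tlr4 was lowest (0.104 ± 0.0248). In depleted mice Myd88 (1.84 ± 0.0708) and Tlr3 (1.63 ± 0.139) stayed on top on this scale. Next came Tlr9 (0.133 ± 0.0345) and Tlr2 (0.118 ± 0.0308), which overlapped, then Tlr4 (0.0776 ± 0.0208), Tlr7 (0.0737 ± 0.0326) and Cd14 (0.0659 ± 0.0251), which also overlapped. Ly86 was then at 0.0404 ± 0.0294, Cd180 at 0.0259 ± 0.0111 and Tlr13 at 0.00737 ± 0.00590. Tlr3 and Myd88 together held 47.2% of the summed level per kilobase in control and 86.5% in depleted mice.

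Among the other Toll-like receptors, 1 of the 4 tested fell and none rose (median -1.50). The one was Tlr1. Tlr12, a receptor of rodents, stood at -1.31 (adjusted p = 0.200) and the flagellin receptor gene Tlr5 at -0.68 (adjusted p = 0.590). Tlr8, with 4 counts in control and 0 in depleted mice, and Tlr11, with 2 and 0, were too low to test.

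Genes that help endosomal receptors reach and use their compartment fell in part. Of 14 accessory and trafficking genes 3 fell and 0 rose (median -0.06). Unc93b1, which carries nucleic acid receptors from the endoplasmic reticulum to endosomes, fell from 10.9 ± 0.923 to 2.82 ± 0.513 CPM (-1.94, SE 0.14, adjusted p = 5.07e-05). Ctss, a lysosomal protease able to cleave endosomal receptors, fell from 36.1 ± 4.88 to 0.987 ± 0.550 CPM (-5.17, SE 0.33). Slc15a3, a lysosomal peptide transporter gene, fell from 0.973 ± 0.175 to 0.115 ± 0.0370 CPM (-3.04, SE 0.29, adjusted p = 3.12e-04), but it shares 1541 exon bases with Tmem132a on the opposite strand. Slc15a3 did not pass within mice with Hcrt (-3.40, adjusted p = 0.0642). The chaperone genes Hsp90b1 (0.09, adjusted p = 0.787) and Cnpy3 (-0.09, adjusted p = 0.616) did not pass.

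Calls among genes of the signalling steps below the receptors stand beside 1.11% called lower over all genes tested. Of 18 Myddosome, kinase and ubiquitin ligase genes, 1 fell and 0 rose (median -0.02). The gene that fell was Btk, a kinase of myeloid and B cells, with 134 counts in control and 8 in depleted mice (-4.05, SE 0.52, adjusted p = 0.00282). Btk did not pass within mice with Hcrt (-4.98, adjusted p = 0.101) or without it (-3.46, adjusted p = 0.0809). Of 4 tested genes of TIR adaptors 0 passed (median -0.07), with the phosphoinositide kinase adaptor gene Pik3ap1 at -1.62 (SE 0.39, adjusted p = 0.126) and Sarm1 at -0.13 (adjusted p = 0.712). Pik3ap1 passed in 3 of 18 alternatives: DESeq2 (-1.64, adjusted p = 0.00572), mice without Hcrt (-2.68, adjusted p = 0.0354) and without depleted mouse 3 (-2.10, adjusted p = 0.0335). Ticam1, which encodes the TLR3 adaptor TRIF, stood at 5.35 ± 0.288 and 5.33 ± 0.211 CPM (-0.01, adjusted p = 0.990). Ticam2, the gene of the TLR4 bridging adaptor, had 42 counts in control and 2 in depleted mice, too few to pass the filter, and shares exon bases with Tmed7.

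Of 9 NF-kB and IRF factor genes 2 fell and 0 rose (median -0.11). They were Irf5, which MyD88 signalling activates (3.57 ± 0.538 to 0.773 ± 0.199 CPM, -2.20, SE 0.21, adjusted p = 3.37e-04), and the myeloid lineage factor gene Irf8 (-2.06, SE 0.21, adjusted p = 4.93e-04). Irf5 shares 411 of its 2905 exon bases with Tnpo3 on the opposite strand. Irf5 did not pass within mice without Hcrt (-2.03, adjusted p = 0.0525), nor Irf8 within mice with it (-2.21, adjusted p = 0.0752). Of 10 inhibitor genes 0 passed (median -0.01), with the deubiquitinase gene Cyld at 0.47 (adjusted p = 0.339) and Sigirr at -0.19 (adjusted p = 0.784). Of 12 response genes only 4 were abundant enough to test and 0 passed (median -0.30), among them the adhesion gene Icam1 (-0.51, adjusted p = 0.455) and the cyclooxygenase gene Ptgs2 (-0.63, adjusted p = 0.470). Il1b had 43 and 21 counts, Tnf 4 and 1, and Il6 9 and 7 over the 4 control and the 4 depleted mice.

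Other innate sensors gave both outcomes. Of 11 tested, 3 fell and 0 rose (median 0.04). The inflammasome sensor gene Nlrp3 fell from 0.771 ± 0.128 to 0.0632 ± 0.00644 CPM (-3.57, SE 0.27, adjusted p = 6.27e-05). Tmem173, which encodes STING, fell from 2.34 ± 0.137 to 0.496 ± 0.111 CPM (-2.23, SE 0.19, adjusted p = 1.16e-04). Within mice with Hcrt neither Nlrp3 (-3.67, adjusted p = 0.0620) nor Tmem173 (-2.03, adjusted p = 0.0730) passed. Pycard, the inflammasome adaptor gene, fell by 1.12 on the log2 scale (adjusted p = 0.0345) but passed in only 9 of 19 alternatives, and in neither the mice with nor those without Hcrt (adjusted p up to 0.392 over the alternatives). Pycard shares 485 of its 3800 exon bases with Gm45205 on the opposite strand. The RNA helicase genes Ddx58 (0.00, adjusted p = 0.994) and Ifih1 (0.16, adjusted p = 0.823), which like Tlr3 sense double-stranded RNA, did not pass.

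**Figure D4:**
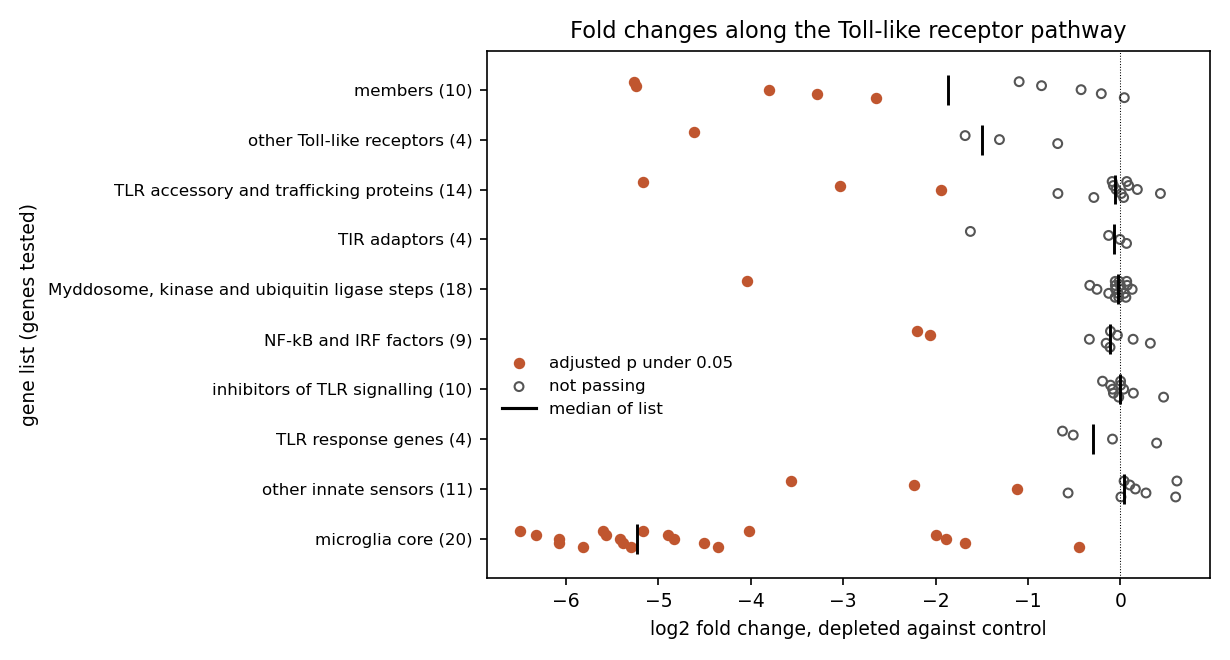
Log2 fold change of depleted against control mice (horizontal axis) for each tested gene of the 10 members, 8 pathway lists and the microglia core list, with the number of genes tested in parentheses. Filled points passed an adjusted p of 0.05 and black bars are medians, which lie at -1.87 for the members, -5.23 for the core genes and between -1.50 and 0.04 for the pathway lists.

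By profile over the 8 mice, the genes most like Tlr3 were Zfp472 and E130311K13Rik, with root mean square differences of 0.05 and 0.06 in centred log2 CPM. The nearest to Myd88 were Anks6 (0.05, log2 fold change -0.23, adjusted p = 0.259) and Mfge8 (0.05, log2 fold change -0.21, adjusted p = 0.133). The other 8 genes had a mean log2 CPM under 0 and were not compared in this way.

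Marker genes of other cell types that can carry these receptors were measured beside the members. Of 10 monocyte and neutrophil markers 0 were abundant enough to test, with a summed level of 0.676 to 1.54 CPM in control and 0.370 to 0.794 CPM in depleted mice, and Ly6g had 0 counts in every mouse. Of 8 B cell markers 5 were tested and 0 passed, and the summed level ran from 17.5 to 28.5 and from 12.3 to 33.5 CPM, most of it from Ighm and Ebf1. The B cell receptor gene Cd79b had 27 and 3 counts over the 4 control and the 4 depleted mice. Of 9 markers of border-associated macrophages, which also carry Toll-like receptors, 3 of the 5 tested fell and 0 rose. They were the scavenger and lectin receptor genes Stab1 (-2.42) and Mrc1 (-2.42) and the coagulation factor gene F13a1 (-2.19). Mrc1 had 109 and 21 counts over the 4 control and the 4 depleted mice, and F13a1 had 83 and 19. The markers too low to test were Cbr2 (53 and 35 counts), Pf4 (21 and 2), Ms4a7 (13 and 3) and Cd209f (10 and 1). The scavenger receptor gene Cd163 had 0.956 ± 0.466 and 2.15 ± 1.05 CPM in the control and depleted groups (1.18, adjusted p = 0.380), and Lyve1 at -0.58 (adjusted p = 0.716). The summed level of the 9 was 12.6 to 17.8 CPM in control and 3.17 to 5.97 CPM in depleted mice. Stab1 gave most of the control sum, at 11.7 ± 1.89 CPM, and 2.18 ± 0.513 CPM in depleted mice. The sum therefore mainly follows this 1 gene and is no measure of these cells. The part of border-associated macrophages in the falls of Cd14, Cd180 and Tlr7 was not tested. Astrocyte markers (0 of 10 passed, median 0.02) and endothelial markers (0 of 10 passed, median -0.08) had similar summed levels in both groups, at 3493 to 4050 and 3416 to 4141 CPM for astrocytes and at 243 to 308 and 249 to 308 CPM for endothelium. Of 8 markers of oligodendrocyte precursors 3 fell and 0 rose (median -0.35). They included the growth factor receptor gene Pdgfra (-0.98, adjusted p = 0.00304) and the proteoglycan gene Cspg4 (-0.86, adjusted p = 3.14e-04). The matrix gene Matn4 also fell (14.7 ± 1.24 to 7.32 ± 1.06 CPM, adjusted p = 0.00141). The remaining markers did not pass and went both ways. Gpr17 stood at 0.60 (adjusted p = 0.177) and Sox10 at 0.23 (adjusted p = 0.590). Olig1 and Olig2 both stood at -0.02, and C1ql1 at -0.67 (adjusted p = 0.332). The summed level of the 8 was 278 to 360 CPM in control and 297 to 338 CPM in depleted mice, and the part of these cells in the members' falls was not tested.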

How the data were processed

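The authors deposited 1 table of raw counts, whole numbers for each gene symbol, with a column for each of the 8 mice. Per the submitters' processing notes, STAR, FastQC, MultiQC, DESeq2 and DESeq were used with mm10. No versions, annotation, strand setting or counting tool are stated there. Coordinates, exon lengths and overlaps come from GENCODE M21 (mm10), which matched 93.3% of the symbols.

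After filterByExpr and TMM scaling, group differences were estimated with edgeR 4.0.16 in R 4.3.3 (quasi-likelihood F test, group as the only term), a procedure first tested on simulated data. The prior count behind log2 CPM was 2. The share left is the ratio of summed counts over summed effective library sizes. No replicate pair was within sampling noise. Nothing states whether mice of a group were handled together. The p-values set a group difference against the spread between these mice, which the fit estimates in part across genes. The members and lists were chosen with earlier results of these data known. Named were all members, Csf1r, the nearest profiles and, per pathway list, up to 3 called genes or, failing that, the 2 with the smallest p. Every other gene was named after its values were seen. Alternatives were other scaling, no filter or at least 1 CPM in 4 mice, DESeq2 1.42.0, limma-voom (limma 3.58.1), a replicate block, the striatum score, Hcrt presence (at least 100 counts) as a block or split, and each mouse left out; pair differences were also taken at a prior count of 0.5. Of some marker genes, values are not reported here.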

Additional observations from a re-analysis of the deposited data

Results flagged for a closer look

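Ly86 in control mouse 4 was far below the other 3 control mice, at 4.24 CPM against 6.06 to 6.38 CPM. Its gap to the next mouse was 0.851 of the range of the group, above Dixon's 95% critical value for 4 samples. Tlr2 and Tlr4 were also lowest in that mouse among the controls, while Tlr7 and Tlr9 were highest there. It was the 1 such case in 28 groups of values examined, and chance gives about 1 in 20. Without this mouse Ly86 kept its call, which held in 19 of 19 alternatives.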

How the results depend on the processing

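The 5 falls held in most alternatives: Ly86 and Cd14 passed in 19 of 19, Cd180 in 18 of 18, Tlr13 in 17 of 18 and Tlr7 in 17 of 19. Members called lower numbered 3 with at least 1 CPM in 4 mice, a filter that removed Tlr13 and Cd180 from the test. They numbered 3 in mice with Hcrt only, where fewer mice were compared, and 5 to 6 with each mouse left out. Genes called lower (223) numbered 346 with DESeq2, 66 in mice with Hcrt only, and 178 to 441 with each mouse left out (441 without depleted mouse 2). Genes called higher (11) numbered 25 with no filter, 6 with the 1 CPM filter, 118 with DESeq2, 4 with the replicate block, 2 with the striatum score, 0 in mice with Hcrt only and 128 in those without. With each mouse left out they numbered 2 (without depleted mouse 3) to 243 (without depleted mouse 2), and the cause was not tested.

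Same-numbered mice matched in Hcrt content. Their deviations from the group means correlated at -0.216, -0.172, 0.368 and -0.0114 for mice 1 to 4. Mice with different numbers correlated at -0.38 to 0.442. With the replicate block 161 genes and 5 members were called lower. The pair differences of 2.14 (Cd180 minus Ly86), 3.11 (Tlr4 minus Cd14) and 2.67 (Tlr3 minus Tlr7) are the same with the block by construction. The block is therefore no check of their size. With each mouse left out these pair differences ran from 1.83 to 2.64, 2.87 to 3.27 and 2.38 to 2.83. Cd180 minus Ly86 was 2.19 at a prior count of 0.5. Signs turned for Sigirr, at 0.016 with the striatum score and from -0.28 to 0.0069 with each mouse left out, and for Tlr3, from -0.0127 to 0.1199. Tlr13, Cd14, Cd180 and Ly86 had 0 to 14 counts per depleted mouse, so counting error limits their residual levels.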
